A study of Drosophila melanogaster with 2 samples.

Results

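The genes of the cytoplasmic ribosomal proteins were examined for Sox102F-GFP binding, 93 of the 13945 protein-coding genes on the fly chromosome arms used. They were taken by name from the annotation: every protein-coding gene whose symbol begins with RpL or RpS, which includes the stalk genes RpLP0, RpLP1 and RpLP2, together with sta. Of the 93, 54 encode large subunit proteins and 39 encode small subunit proteins. The study mapped DNA bound by Sox102F, a SoxD-family HMG-domain protein, by chromatin immunoprecipitation and sequencing (ChIP-seq). The description of the samples names an antibody against GFP, while their antibody field names Sox102F, so the labels do not settle which was used. The flies were Drosophila melanogaster of a transgenic line, strain Sox102F-GFP, stably expressing Sox102F with GFP at the C terminus, and whole white prepupae of both sexes were pooled. There was 1 group of 2 samples, labelled biological replicates 1 and 4, with no second condition and no untagged line analysed here. Because whole animals were used, a summit cannot be assigned to a tissue.

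Ribosomal protein genes encode the protein part of the translating ribosome and are among the most strongly transcribed genes of growing cells. In flies their transcription starts at a polypyrimidine initiator, also called the TCT motif, in place of the usual initiator, and depends on the TBP-related factor Trf2 together with factors such as Dref and M1BP. Loss of 1 copy of many of them gives the Minute phenotype of slow development and thin bristles.

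The deposited lists hold peaks with a summit and a signal value made by the authors, and no read counts, so depth is unknown. The optimal list, made by the authors from both replicates by the irreproducible discovery rate, holds 7055 peaks with a median signal of 135.4 and a lowest signal of 76.7. Each replicate list holds 30000 entries, from which the 7055 with the highest signal were used here. The replicates stood apart at starts: of the strongest replicate 1 entries within 1 kb of a protein-coding start, 24.5% had no replicate 4 entry within 100 bp, and of the strongest replicate 4 entries there, 13.4% had no replicate 1 entry. Counts are therefore given for the optimal list and for each replicate. Nothing was tested over genes, since members are not replicates of a condition. A gene was counted if a summit fell no more than 1 kb from one of its annotated starts, and positions are negative upstream of the start.

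Most members held the core word of the polypyrimidine initiator near a start, and most of their summits lay near a start too; the distance from summit to word was not measured. The dm6 sequences shown here run from 40 bases before to 30 bases after an annotated start, 5′ to 3′ on the strand of the gene, and capitals mark CTTT, the core of the initiator, with its C within 10 bp of the start. RpL8, RpL9, RpL24, RpL27 and RpS19a are shown from the 18 members whose nearest optimal summit lay within 10 bp of the start. Not all of the 18 hold the word: sta, with its summit at 9 bp, has no CTTT within 10 bp of a start. RpS19b is shown as the duplicate of RpS19a whose summit lay far upstream, and RpL40 and RpS27A as ubiquitin fusion genes with no optimal summit. The windows were RpL8 at chr3L:2587416-2587486 (+), RpL9 at chr2L:11004123-11004193 (-), RpL24 at chr2L:13395062-13395132 (-), RpL27 at chr3R:25685021-25685091 (-), RpS19a at chrX:16637854-16637924 (+), RpS19b at chr3R:23933500-23933570 (-), RpL40 at chr2L:4227659-4227729 (+) and RpS27A at chr2L:10408312-10408382 (+).
RpL8: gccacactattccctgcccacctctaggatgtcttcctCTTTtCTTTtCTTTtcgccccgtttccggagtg
RpL9: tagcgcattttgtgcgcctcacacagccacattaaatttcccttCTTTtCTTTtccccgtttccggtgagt
RpL24: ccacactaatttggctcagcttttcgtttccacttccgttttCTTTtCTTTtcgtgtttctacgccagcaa
RpL27: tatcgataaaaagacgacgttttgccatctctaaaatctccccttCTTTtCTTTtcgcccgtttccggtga
RpS19a: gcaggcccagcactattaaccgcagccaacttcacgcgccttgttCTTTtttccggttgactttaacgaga
RpS19b: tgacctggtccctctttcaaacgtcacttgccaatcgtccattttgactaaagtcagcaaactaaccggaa
RpL40: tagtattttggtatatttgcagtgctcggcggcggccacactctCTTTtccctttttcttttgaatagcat
RpS27A: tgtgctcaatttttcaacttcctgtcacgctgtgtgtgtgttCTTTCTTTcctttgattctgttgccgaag

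The word CTTT was searched on the sense strand. It lay with its C within 10 bp of a start in 76 of 93 members (81.7%), against 14.9% of all protein-coding genes. The share was 87.0% of large subunit genes and 74.4% of small subunit genes. Genes of mitochondrial ribosomal proteins, which serve the separate ribosome of mitochondria, held it in 6.85%, and genes of translation factors in 28.8%. In the members the C lay from 4 bp before to 9 bp after the start, most often 4 bp after it, in 16 genes. It lay within 1 bp of a start in 7 members (7.53%), against 1.92% of all protein-coding genes. The 17 members without the word included RpL12, RpL17, RpL26, RpS2, RpS12, RpS20 and sta. A further 9 of them were copies of duplicated genes: RpL10Aa, RpL24-like, RpL34a, RpLP0-like, RpS10a, RpS15Ab, RpS19b, RpS28-like and RpS28a.

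**Figure D1:**
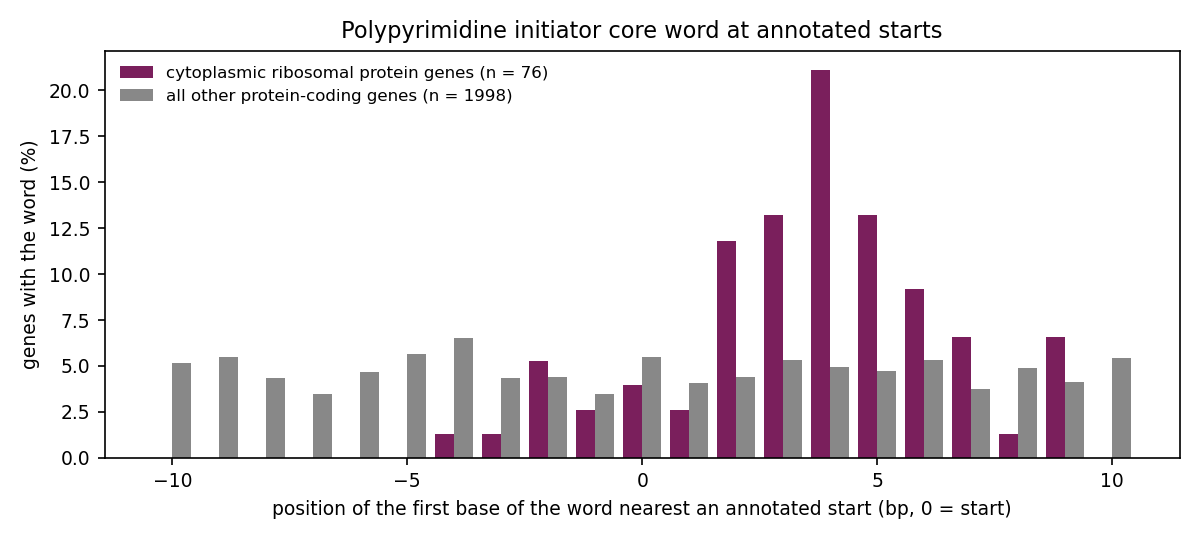
Position in bp of the C of the CTTT word nearest an annotated start, as a percentage of the genes that hold the word within 10 bp, for 76 cytoplasmic ribosomal protein genes and 1998 other protein-coding genes. The members' words gather after the start, with 21.1% at 4 bp, while those of other genes are spread over the window.

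A Sox102F-GFP summit lay within 1 kb of a start of most members. In the optimal list it was 61 of 93 genes (65.6%), against 20.3% of all protein-coding genes. Among the strongest entries of replicate 1 it was 70 (75.3%), against 23.8% of all protein-coding genes, and among those of replicate 4 it was 57 (61.3%), against 19.5%. In both replicates' strongest entries it was 55 members (59.1%), against 16.9% of all protein-coding genes. With a summit counted in any of these 3 lists it was 72 members (77.4%), against 26.7%. In the optimal list the comparison lists were nearer to that background, with 18 of 73 mitochondrial ribosomal protein genes (24.7%) and 12 of 52 translation factor genes (23.1%). The mitochondrial list had 32.9% in replicate 1, above the 23.8% there, and 23.3% in replicate 4.

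Large and small subunit genes had similar shares. Of the large subunit genes, 35 of 54 had an optimal summit (64.8%), and of the small subunit genes 26 of 39 (66.7%). In replicate 1 the shares were 77.8% of large and 71.8% of small subunit genes, and in replicate 4 they were 63.0% and 59.0% in the same order. The subunit with the higher share therefore changed with the list.

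**Figure D2:**
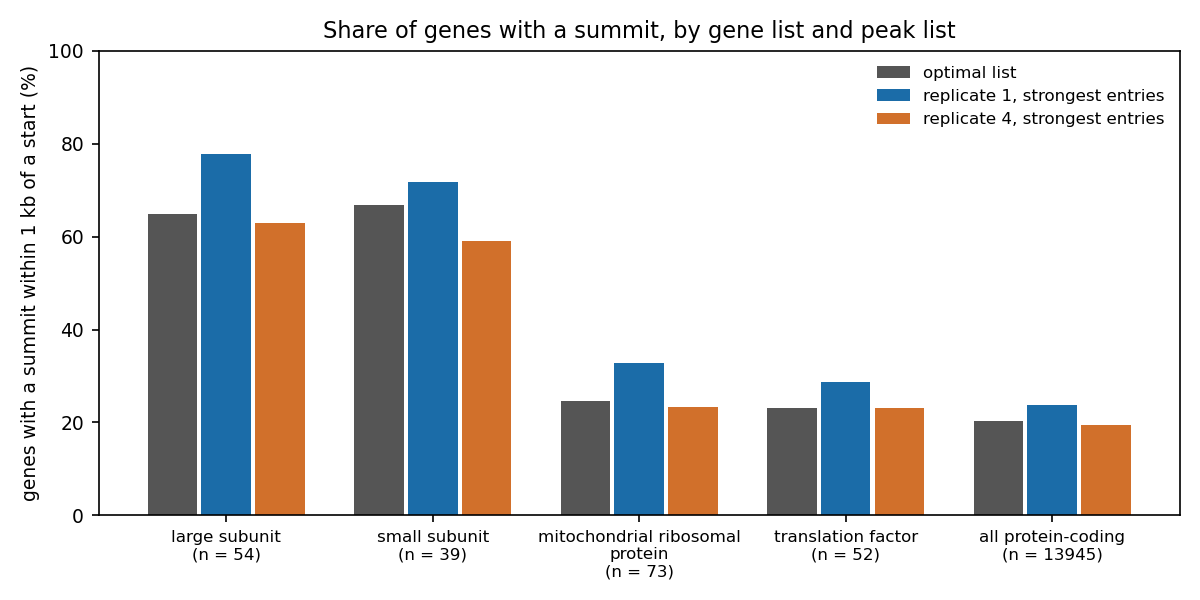
Percentage of genes with a summit within 1 kb of a start, by gene list (number of genes under each name) and by peak list: the optimal list and the strongest 7055 entries of replicate 1 and of replicate 4. Bars for both subunits stand between 59.0% and 77.8% in all 3 peak lists, and those of the other lists between 19.5% and 32.9%.

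The members' summits lay close to the start. The nearest optimal summit of the 61 members lay at a median of −8 bp (quartiles −42 and 9 bp), against −119 bp for the 2768 other protein-coding genes with a summit. The median was −10.5 bp in replicate 1 and −9 bp in replicate 4. Within 50 bp of a start lay the nearest summit of 46 members, 75.4% of those with a summit, against 18.9% of all protein-coding genes with one. Counted over all genes, 3.83% of protein-coding genes had an optimal summit within 50 bp of a start. Within 250 bp it was 59 of 93 members, against 13.5% of all protein-coding genes. By place, the strongest summit was upstream of the member's nearest start for 37 members, in a 5′ UTR for 22 and in an intron for 2, RpL3 and RpS9. Some of the 37, such as RpLP0 and RpL35, have another start further upstream, so their summit lies inside the gene.

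**Figure D3:**
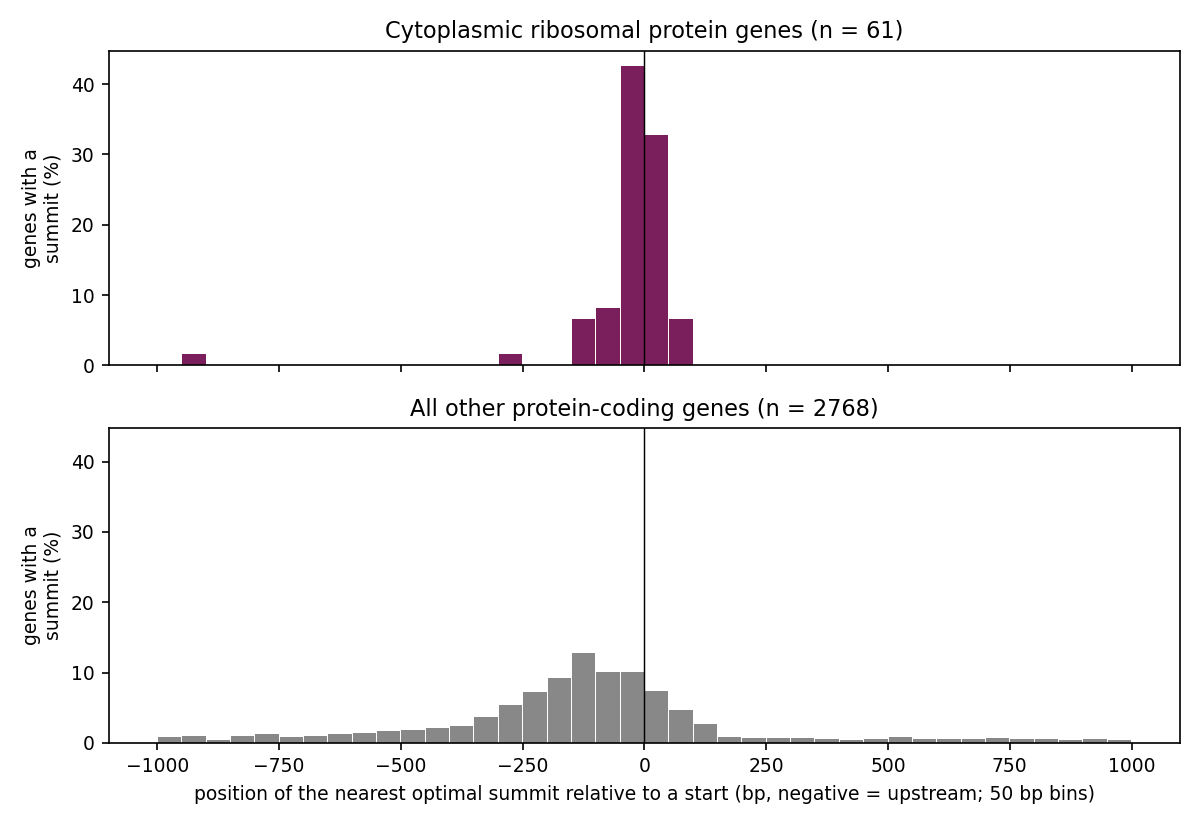
Position of the nearest optimal summit relative to a start, in 50 bp bins, as a percentage of the genes with a summit: 61 cytoplasmic ribosomal protein genes above, 2768 other protein-coding genes below, on the same vertical scale. The members gather within 50 bp of the start, with a median of −8 bp, while the other genes spread upstream around a median of −119 bp.

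Positions differed little between the subunits. The median was −15 bp for large subunit genes and −2.5 bp for small subunit genes. Mitochondrial ribosomal protein genes had a median of −175 bp, with 0 of 18 summits within 50 bp, and translation factor genes one of −99 bp, with 4 of 12 within 50 bp. Among large subunit genes, the nearest summit lay at the start base for RpL37A, at 2 bp for RpL8, at −6 bp for RpL14 and RpL23, at 6 bp for RpL27 and at −7 bp for RpLP0, the base of the ribosomal stalk. Among small subunit genes, it lay at the start base for RpS23, at −1 bp for RpS27, at −4 bp for RpS7 and at 5 bp for RpS4 and RpS21. Only 2 members had their nearest optimal summit over 250 bp away, RpL28 at −282 bp and RpS19b at −903 bp, the member just inside the 1 kb window. At RpL28 the strongest replicate 1 entry, 171.9, lay at −59 bp. At the −282 bp summit RpL28 had 41.9 in replicate 1 and 50.1 in replicate 4.

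Summits at the start took a larger share of the members with the initiator word. Of the 76 with CTTT within 10 bp, 52 had an optimal summit (68.4%) and 42 had one within 50 bp (55.3%). Of the 17 without it, 9 had a summit (52.9%) and 4 had one within 50 bp (23.5%). Those 4 were RpL12 at −25 bp, RpL17 at 14 bp, RpS12 at −39 bp and sta at 9 bp, none a copy of a duplicated gene. Duplicated copies among the 17 had none that near, with RpL34a at −149 bp, RpLP0-like at −61 bp and RpS19b at −903 bp. The word was in 66.7% of duplicated members and 87.9% of the other members. The part of duplication in the gap was not tested. Other protein-coding genes with the word had a summit in 29.5% of 1998 cases and one within 50 bp in 5.96%, and those without it in 18.4% and 3.11% of 11854 cases. Members with the word thus stood above other genes with the word in both counts. In replicate 1 the share of members with a summit was 77.6% with the word and 64.7% without it, and in replicate 4 it was 65.8% and 41.2%.

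The signals of the members spanned most of the list, from rank percentile 1.12 to 97.5, and 11 of the 61 lay below percentile 50. The strongest summit of the 61 members had a median signal of 229.8 (quartiles 157.6 and 340.6), against 175.4 for all protein-coding genes with a summit. As a rank, the median member stood at percentile 76.1 of the optimal list, against 64.8 for all protein-coding genes. Large subunit genes had a median signal of 246.6 and small subunit genes one of 202.6. In replicate 1 the medians were 123.2 and 110.0 in that order, but in replicate 4 they were 108.7 and 112.5. Most members had a single summit, 52 of 61, and 9 had more than 1.

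**Figure D4:**
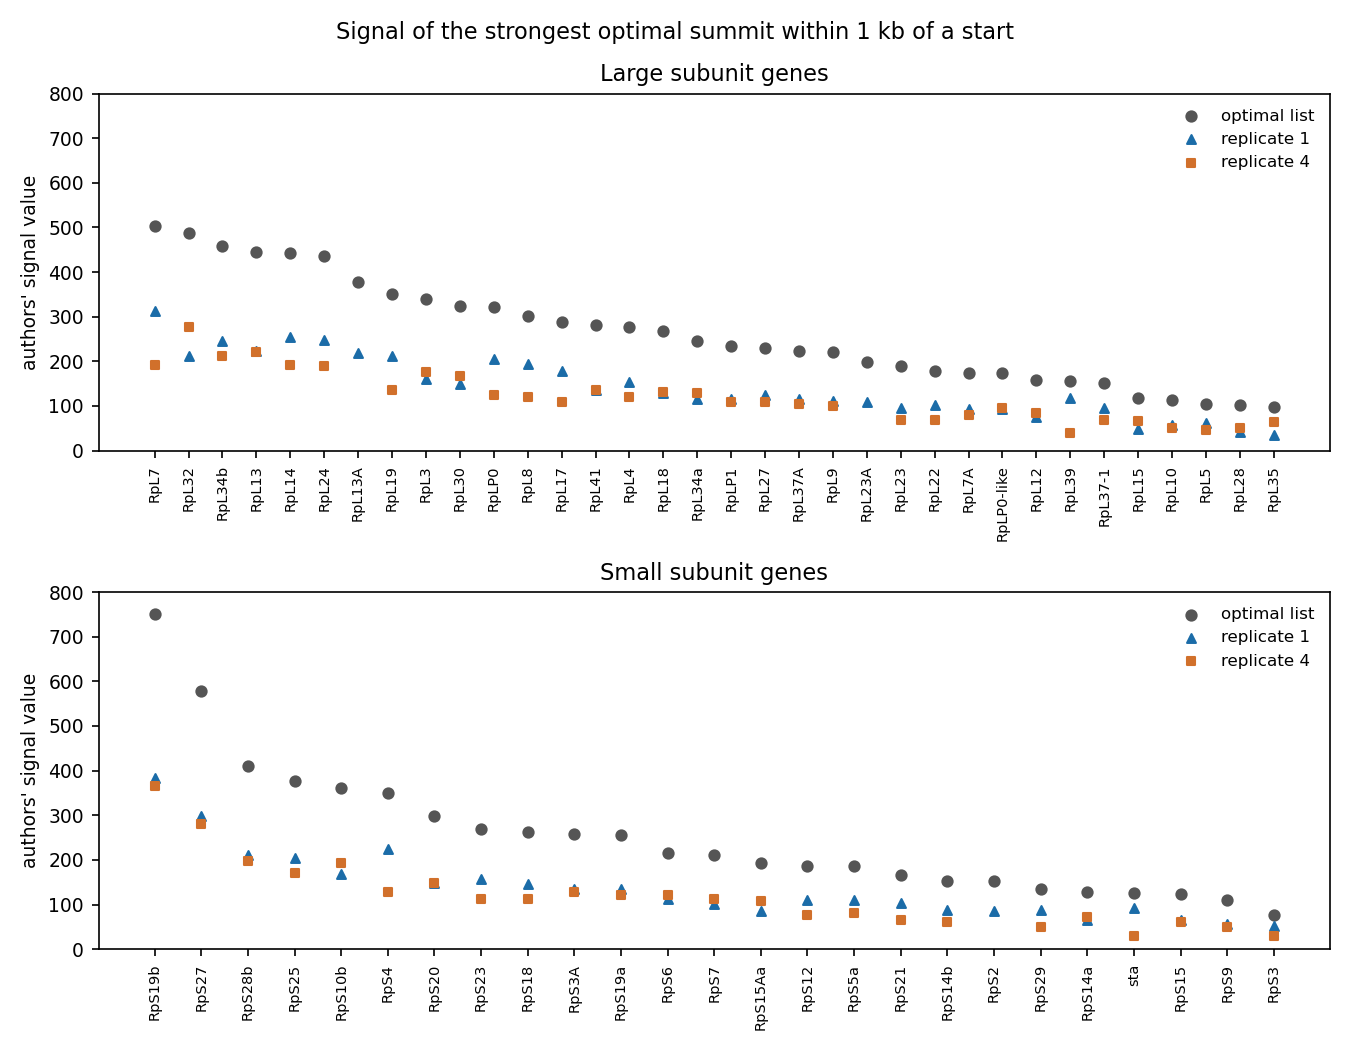
The authors' signal of the strongest optimal summit within 1 kb of a start (circles) for 34 large subunit genes and 25 small subunit genes, ordered by signal, with the signal of the replicate 1 entry (triangles) and the replicate 4 entry (squares) within 100 bp. Signals run from 750.5 at RpS19b to 77.4 at RpS3, and RpL13A, RpL23A and RpS2 have no replicate 4 point.

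Of the 12 members with the strongest summits, the first was RpS19b, one of a pair of genes for a small subunit maturation protein. Its summit had a signal of 750.5, with 383.2 in replicate 1 and 365.3 in replicate 4. That summit lay 903 bp upstream of RpS19b and 521 bp from a start of CG5854, the nearer gene. RpS27 had 579.3, with 299.1 in replicate 1 and 280.2 in replicate 4, and its summit lay 1 bp from the start. RpL7 had 502.9, with 312.2 in replicate 1 against 192.1 in replicate 4, at 33 bp. RpL32, whose transcript is the common reference in fly RT-PCR, had 488.1, with 211.2 in replicate 1 and 276.5 in replicate 4, at −125 bp. Replicate 1 was higher at the first 3 of these and replicate 4 at RpL32.

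The others of the 12 were mostly large subunit genes with the summit just upstream. RpL34b had 457.7, RpL13 444.2, RpL14 442.3, RpL24 435.6 and RpL13A 378.0. RpL14 had 253.4 in replicate 1 and 192.3 in replicate 4, and RpL24 had 247.9 and 190.4 in that order. Both were higher in replicate 1. RpL34b had 246.6 in replicate 1 and 211.7 in replicate 4, and RpL13 had 224.2 and 221.1 in that order. Among small subunit genes, RpS28b had 410.2, with 209.9 in replicate 1 and 197.7 in replicate 4, and RpS25 had 377.2, with 204.2 and 169.6. The strongest RpS28b summit lay 812 bp upstream and 61 bp from a start of l(1)G0320, and a second summit of 290.7 lay 35 bp upstream of RpS28b.

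At the low end, RpS3, a Minute gene whose product also acts on damaged DNA, had the weakest optimal summit of the members, 77.4, with 50.9 in replicate 1 and 28.6 in replicate 4. RpL38, another Minute gene, was just outside the list, with a pooled entry of 75.3 at −39 bp, 47.2 in replicate 1 and 19.0 in replicate 4. The 2 values lie on either side of the lowest optimal signal of 76.7.

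Proteins with particular roles did not share a pattern. Of the acidic stalk, RpLP0 had an optimal summit of 322.4 at −7 bp and RpLP1 one of 233.3 at −22 bp, while RpLP2 had only a pooled entry of 54.2 at −149 bp and a replicate 1 entry of 24.2. Of the 5S RNP, which surveys ribosome assembly through p53 in mammals, RpL5 had 103.6 at 57 bp and RpL11 had no optimal summit. RpS6, the substrate of S6 kinase, had 215.0 at 88 bp, with 111.7 in replicate 1 and 122.0 in replicate 4. RpL3, at the peptidyl transferase centre, had 340.6 at 57 bp, with 160.8 in replicate 1 and 176.7 in replicate 4. The genes of ribosomal proteins made as fusions with ubiquitin, RpL40 and RpS27A, and RpS30, made as a fusion with a ubiquitin-like protein, had no optimal summit. RpL40 had a pooled entry of 59.1, and the other 2 had no entry within 1 kb in any list.

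At most members, replicate 1 had the higher signal. For 57 of the 61 members, the strongest summit had an entry of both replicates within 100 bp. Replicate 1 was the higher in 42 of the 57 and replicate 4 in 15. That is 73.7%, against 47.7% of the 2654 optimal summits near protein-coding starts with entries in both replicates. The median ratio of replicate 1 to replicate 4 was 1.13 for members, against 0.983 for summits near protein-coding starts and 0.972 for all matched optimal summits. The lists were not scaled to each other here, so the ratio of 1 member is read only beside these medians.

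Replicate signals differed by over 1.5 times at 14 members, 13 of them higher in replicate 1. The 14 are 24.6% of the 57 matched, against 29.5% of matched summits near protein-coding starts, so such gaps took no larger share of the members. The 13 are 22.8%, against 15.6% near protein-coding starts. The widest gap was at sta, the gene for the small subunit protein RpSA, with 93.2 in replicate 1 and 29.5 in replicate 4. RpL39 followed, with 118.5 in replicate 1 and 39.1 in replicate 4. The ratio of replicate 1 to replicate 4 was 1.78 at RpS3, 1.77 at RpS4 and RpS29, and 1.65 at RpLP0. At RpL7, RpL17, RpL8, RpS21, RpL19 and RpL22 it ran from 1.63 to 1.51. RpL35 was the exception, with 34.1 in replicate 1 and 63.6 in replicate 4.

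At 4 members the strongest summit had a replicate 1 entry and no replicate 4 entry within 100 bp. Over all summits near members it was 4 of 70 (5.71%), against 7.1% of optimal summits near protein-coding starts, a share near the background. Among the 4, RpL13A had 218.4 in replicate 1, RpL23A 108.8 and RpS2 84.5, and these 3 had no replicate 4 entry within 1 kb. None of the 61 strongest summits lacked a replicate 1 entry within 100 bp. Over all summits near members, 3 of 70 (4.29%) lacked one, against 3.84% of optimal summits near protein-coding starts.

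Of the 32 members without an optimal summit, 10 had an entry among the strongest of replicate 1 (31.2%), against 6.46% of the 11116 protein-coding genes without an optimal summit. For 9 of the 10 the pooled list had no entry within 1 kb, although replicate 1 had one. RpL31 had 147.4 in replicate 1 at 3 bp, RpS16 144.7 at −63 bp, RpL11 128.9 at −9 bp, RpL35A 122.6 at −9 bp and RpL27A 100.3 at 2 bp. RpL36, a Minute gene, had 84.9 at 13 bp, RpL26 71.1 at −646 bp, RpL7-like 63.0 at −345 bp and RpS28a 47.1 at 465 bp. None of these 9 had a replicate 4 entry within 1 kb. RpL38 was the tenth and had entries in all 3 lists.

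As a share of the strongest replicate 1 entries, those without a pooled entry were about as common near other genes. Counted by gene they were not: 9 of the 32 members without an optimal summit had one, against 503 of the 11116 protein-coding genes. Of the strongest replicate 1 entries within 1 kb of a member start, 8 of 81 (9.88%) had no pooled entry within 1 kb, against 10.2% of those near all protein-coding starts and 5.41% of all 7055. Of the replicate 4 entries near members, 0 of 63 lacked one, against 2.08% near all protein-coding starts. What sets these entries apart was not tested.

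Of the other members without an optimal summit, RpL10Ab alone had an entry among the strongest of replicate 4 and not of replicate 1. It had 86.1 in replicate 4 at −5 bp and a pooled entry of 54.4 at −567 bp. RpS5b had a pooled entry of 63.9 at −606 bp, RpS28-like one of 49.6 at 724 bp, RpS13 one of 47.5 at −68 bp and RpL22-like one of 26.9 at 591 bp. RpL6 had 39.8 in replicate 1 at 46 bp and RpS10a 11.4 at −280 bp, with no entry in the other lists. In all, 13 of the 32 (40.6%) had no entry within 1 kb in the pooled or either replicate list, against 62.7% of the 11116 genes. They included RpL10Aa, RpL21, RpL24-like, RpL29, RpL36A and RpL37-2 of the large subunit and RpS15Ab, RpS24, RpS26, RpS27A and RpS30 of the small subunit.

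**Figure D5:**
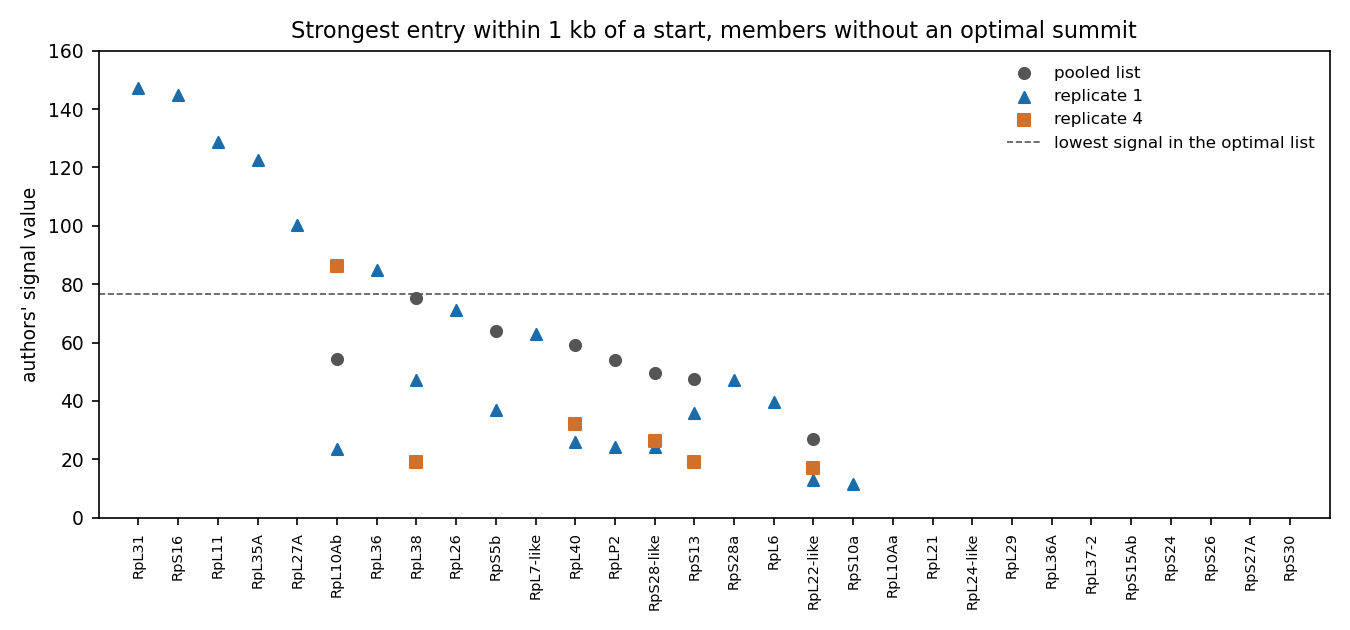
The authors' signal of the strongest entry within 1 kb of a start in the pooled list, replicate 1 and replicate 4, for 30 cytoplasmic ribosomal protein genes without an optimal summit, ordered by their highest value. The dashed line is the lowest optimal signal, 76.7, and 11 genes at the right have no entry in any list.

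Among duplicated genes, mostly 1 copy had the summit. By name, 27 members form 13 families, and 16 of the 27 had an optimal summit (59.3%), against 45 of the 66 other members (68.2%). In replicate 1 the shares were 66.7% and 78.8% in that order, and in replicate 4 63.0% and 60.6%. The order thus changed with the list. In 8 families exactly 1 copy had a summit: RpL7 and not RpL7-like, RpL22 and not RpL22-like, RpL24 and not RpL24-like, RpL37-1 and not RpL37-2, RpS5a and not RpS5b, RpS10b and not RpS10a, RpS15Aa and not RpS15Ab, and RpS28b and neither RpS28a nor RpS28-like. RpL24-like, RpL7-like and RpLP0-like resemble the yeast ribosome assembly factors Rlp24, Rlp7 and Mrt4, so a family is here a set of names and not of interchangeable proteins. RpS5b and RpL22-like are known as germline-enriched copies.

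The 8 copies with a summit ranged widely in signal. RpL7 (502.9) and RpL24 (435.6) were high, RpS28b had 410.2 and RpS10b 361.6, with 168.8 in replicate 1 and 193.6 in replicate 4. RpS15Aa had 193.6, RpS5a 185.4, RpL22 178.8 and RpL37-1 150.6. Both copies had a summit in 4 families: RpL34a had 246.6 and RpL34b 457.7, RpLP0 had 322.4 and RpLP0-like 174.1, RpS14a had 128.3 and RpS14b 153.7, and RpS19a had 254.8 and RpS19b 750.5. At RpL34a, RpLP0-like and RpS19b that summit lay nearer to another gene's start. So did the strongest RpS28b summit, while the one 35 bp upstream of RpS28b had 290.7. RpS14a and RpS14b are tandem neighbours on X, each with its own summit, at −22 bp and −50 bp. Neither RpL10Aa nor RpL10Ab had an optimal summit.

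By chromosome, the share of members with a summit was highest on X among the large arms. Of the 15 members on X, 14 had an optimal summit (93.3%), against 22.2% of all protein-coding genes on X, and RpL36 was the member without one. Their signals had a median of 182.1 and ran from 97.5 at RpL35 to 410.2 at RpS28b. RpL17 had 289.0, RpL7A 174.8 and RpS19a 254.8. On 3L it was 12 of 14, against 21.6% of protein-coding genes there, and on 3R 14 of 23, against 20.4%. On 2L it was 10 of 19, against 19.0%, and on 2R 10 of 21, against 18.7%. RpS3A, the sole member on chromosome 4, which also carries Sox102F, had a summit of 258.9 at −30 bp, with 134.3 in replicate 1 and 127.7 in replicate 4. Arms were compared after their counts were seen, and the arms hold few members each.

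Many members have a close neighbour, and a summit near a member can be near another gene too. Of the 61 strongest summits, 40 had a start of another protein-coding gene within 1 kb and 21 had none. Over all 70 summits near members, 68.6% had a start of a gene outside the list within 1 kb. The same share was 71.4% for translation factor genes and 94.7% for mitochondrial ribosomal protein genes. Members with such a neighbour had a summit in 42 of 59 cases (71.2%), against 25.5% of the 5985 protein-coding genes with a neighbour. Members with none had one in 19 of 34 cases (55.9%), against 16.4% of the 7960 protein-coding genes with none. In those 19 the summit was not shared, and 17 of them lay within 50 bp of the start. The member's own start was the nearest, or tied, for 55 of the 61 strongest summits.

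At 18 members another start lay within 250 bp of the strongest summit, and all 18 neighbours were transcribed in the opposite direction, away from the member. No share over other genes with a summit is given for this distance or direction, so neither is read as particular to members. The RpL13 summit lay 42 bp from its own start and 42 bp from a start of Dref, which encodes the factor that binds the DRE element. Neighbours also nearby were Nelf-E, of the pausing factor NELF, at 121 bp from the RpL14 summit, Nup37, of the nuclear pore, at 143 bp from that of RpS27, and Ripalpha at 63 bp from that of RpL7. The neighbour was nearer than the member at RpL28, 99 bp from eIF1, which acts in start codon selection, at RpLP0-like, 26 bp from 14-3-3zeta, and at RpL34a, 80 bp from Trmt61. This holds for the optimal summit of RpL28, while its strongest replicate 1 entry lay 59 bp upstream of RpL28. It was also nearer at RpL23, 208 bp from CG13531, and at RpS28b, 61 bp from l(1)G0320. Other neighbours were CG3776 at RpL19 (95 bp), NaCP60E at RpL41 (139 bp), CG8132 at RpL34b (147 bp), CG7943 at RpL32 (184 bp) and CG4820 at RpS25 (190 bp). Further neighbours were inc at sta (196 bp), CG17271 at RpS20 (208 bp) and Neos at RpL18 (238 bp). Which gene of such a pair a summit belongs to cannot be told apart here.

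Members also host small nucleolar RNAs, which guide rRNA modification, in their introns. Of the 29 members with an annotated snoRNA inside the gene, 22 had an optimal summit (75.9%), against 65.6% of all 93 members and 20.3% of all protein-coding genes, at a median position of −5 bp. The share of these hosts was 86.2% in replicate 1 and 69.0% in replicate 4, against 75.3% and 61.3% of all members. RpS5a, with 14 of them, had its summit at −43 bp, and RpS7, with 7, at −4 bp.

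Words of known regulators were searched on either strand in the 101 bases centred on each summit. The sequences of 6 members are shown, on the strand of the gene, with the words found in capitals: the DRE element TATCGATA at RpL27, RpS25 and RpS12, Motif 1, GTCACACT, at RpL7 (on the other strand, beside the E-box CACGTG) and RpLP0, and the SOX core ACAAT at RpL18. The dm6 windows were RpL27 at chr3R:25684995-25685095 (-), RpS25 at chr3R:11216295-11216395 (-), RpS12 at chr3L:13023263-13023363 (+), RpL7 at chr2L:10200987-10201087 (+), RpLP0 at chr3L:22076035-22076135 (+) and RpL18 at chr3L:7241340-7241440 (-).
RpL27: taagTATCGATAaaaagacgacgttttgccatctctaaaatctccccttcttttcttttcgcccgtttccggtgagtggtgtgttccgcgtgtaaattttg
RpS25: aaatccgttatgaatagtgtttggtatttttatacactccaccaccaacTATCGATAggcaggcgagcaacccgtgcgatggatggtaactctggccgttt
RpS12: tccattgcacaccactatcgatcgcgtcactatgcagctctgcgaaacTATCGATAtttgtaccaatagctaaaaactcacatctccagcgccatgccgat
RpL7: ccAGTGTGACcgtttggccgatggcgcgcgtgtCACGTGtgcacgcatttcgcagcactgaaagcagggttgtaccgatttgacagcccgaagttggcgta
RpLP0: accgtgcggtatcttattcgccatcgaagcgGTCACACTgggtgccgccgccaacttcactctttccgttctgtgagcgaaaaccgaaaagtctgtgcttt
RpL18: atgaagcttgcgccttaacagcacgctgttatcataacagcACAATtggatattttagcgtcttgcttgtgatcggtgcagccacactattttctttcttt

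The SOX words lay at a smaller share of the members' summits than of other peaks. ACAAT lay within 50 bp of 11 of the 70 summits near members (15.7%), against 26.3% of the 2970 optimal summits near protein-coding starts and 29.0% of all 7055. ACAAAG lay at 2 (2.86%), RpL34a and RpS7, against 7.44% near protein-coding starts. The ACAAAG count was 4 of 81 summits among the strongest of replicate 1 and 3 of 63 in replicate 4, and 4 of 70 (5.71%) within 100 bp of the optimal summits, against 14.0% near protein-coding starts. Within 100 bp, ACAAT was found at 42.9% of member summits and 44.9% of summits near protein-coding starts, so the gap for this word shrank with the wider window. Members' summit windows were richer in G and C, with a median of 44.6%, against 37.6% near protein-coding starts and 33.7% over all optimal summits. The part of base composition in these word counts was not tested. In the promoter, 250 bases before to 50 bases after a start, ACAAT was found in 74.2% of members and 67.3% of all protein-coding genes.

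Words of 3 other factors lay at a larger share of them. The DRE lay at 10 of the 70 summits (14.3%), against 1.52% of optimal summits near protein-coding starts, and the 10 included those of RpL19, RpL27, RpL39, RpL41, RpS10b, RpS12, RpS14a, RpS25 and RpS29. Motif 1, bound by M1BP, lay at 5 (7.14%), against 0.808%, and these were RpL7, RpL37A, RpLP0, RpLP1 and RpS15. The E-box lay at 3 (4.29%), against 1.14%, and these were RpL5, RpL7 and RpL37-1. Within 100 bp the E-box count was 9 (12.9%), against 2.42%, the DRE count 15 (21.4%), against 3.06%, and the Motif 1 count 7 of 70, against 2.09%. In promoters the DRE was found in 30.1% of members and 10.2% of all protein-coding genes, Motif 1 in 12.9% and 7.59%, and the E-box, which Myc and Max bind, in 16.1% and 5.3%. The DRE was also in 28.8% of translation factor and 21.9% of mitochondrial ribosomal protein promoters, near the share of members. In the same order, Motif 1 was in 7.69% and 11.0% and the E-box in 9.62% and 6.85%. The E-box was in 24.1% of large subunit and 5.13% of small subunit promoters. A word is a run of letters in the window and not a measured site.

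Among genes that regulate ribosomal protein transcription and growth, 9 of the 24 listed genes found in the annotation had an optimal summit (37.5%), against the 20.3% of all protein-coding genes. Brf, of RNA polymerase III initiation, had 503.4 at −222 bp, with 267.4 in replicate 1 and 247.1 in replicate 4. Trl had 310.5, Mnt, a Max partner, 223.0, and Trf2 215.3 at 733 bp. Thor, the fly 4E-BP, had 132.9 at −28 bp, raptor of the TOR complex 127.5 at −798 bp, Max 125.5 and crol 78.0 at 796 bp. The ninth was Dref with the summit it shares with RpL13. M1BP, Myc, S6k and Rheb had none.

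Of the 35 genes listed for ribosome assembly, 10 had an optimal summit (28.6%), against 20.3% of all protein-coding genes. One of them, Rrp1, names a DNA repair enzyme in flies, and without it, left out after its value was seen, the count was 9 of 34 (26.5%). eIF6, which keeps the subunits from joining early, had 961.3 at −99 bp, with 522.7 in replicate 1 and 434.8 in replicate 4. Ns2 had 700.2, with 329.2 in replicate 1 and no replicate 4 entry within 100 bp. Polr1D, a subunit of RNA polymerases I and III, had 402.6 at −929 bp. Rrp1 had 299.5, with no entry of either replicate within 100 bp. Nop56, of the box C/D snoRNP, had 266.2 at −737 bp. Rack1, a scaffold on the small subunit, had 245.2 at −4 bp, with 156.1 in replicate 1 and 96.0 in replicate 4. The bys summit of 215.0 was that of RpS6, 637 bp from bys. Surf6 had 169.2 and RIOK1 166.5. The hoip summit of 83.2 lay at 880 bp, with 67.9 in replicate 1 and 12.9 in replicate 4.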

How the data were processed

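Per the deposited text records, alignments and a control gave the replicate and pooled lists, from which the authors derived the optimal one. No source used here names the aligner, peak caller or IDR threshold. Signal values were used as deposited by the authors, to rank, filter and describe peaks. A replicate's signal was set beside the other's without rescaling. The deposited −log10 q-value is at its ceiling in 58.9% of optimal peaks and was not used. The deposited summit offset, an other value in bp, was added to the peak start and counted from 1.

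The dm6 lists were joined to starts of Ensembl release 115 (BDGP6.54) on 2L, 2R, 3L, 3R, 4 and X, and sequences were read from RefSeq's release 6 assembly. The dm3 lists were not used, since no dm3 annotation was used here. Python 3.11.15, numpy 2.4.6, pandas 2.3.3 and matplotlib 3.10.9 were used, and the assignment of summits to starts was tested on simulated data. No test was run, because 1 group of 2 replicates allows none.

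Genes named are the 12 with the strongest summits, the 6 per subunit with the nearest, those without an optimal summit, duplicates, those with a neighbour's start within 250 bp of the summit, those on X or 4, and those whose replicates differ by over 1.5 times. A few genes that this rule names are not reported here singly, and they remain in the counts. Duplicates share a name after removal of a final lower-case letter, -1, -2 or -like; a capital A, as in RpL7A, marks another protein and made no pair. Of the listed regulators 1, and of the assembly genes 6, were not in the annotation under the name written. Members and lists were chosen with earlier results of these data known. Alternatives varied the window, starts, list, threshold, replicate agreement and assignment.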

Additional observations from a re-analysis of the deposited data

How the results depend on the processing

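The count of 61 members with a summit near a start was 60 within 500 bp, 59 within 250 bp, 61 with the outermost start alone, 57 when a summit counted for the nearest start alone, 50 in the 3527 strongest optimal peaks, 54 with both replicates within 100 bp and 55 within 250 bp. With 1 replicate left out it ran from 57 to 70. With the optimal list or either replicate, an alternative chosen after seeing the data, it was 72. Large subunit genes ran from 30 to 44 and small subunit genes from 20 to 28 over these settings, with 34 to 42 and 23 to 28 when 1 replicate was left out.

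The median rank percentile, 76.1, was 75.5 within 500 bp and 74.7 to 74.9 with 1 replicate left out. It was 61.0 in the 3527 strongest optimal peaks, and 68.0 and 71.9 with both replicates within 100 and 250 bp. In these shortened lists ranks start afresh by construction. The median position, −8 bp, was −1 bp with the outermost start, −12.5 bp in the 3527 strongest and −10.5 to −9 bp with 1 replicate left out. The share of the members' summits with another gene's start in the window, 68.6%, was 47.0% and 25.0% in the narrower windows of 500 and 250 bp, 72.2% in the 3527 strongest, 69.4% with both replicates within 250 bp and 70.4 to 71.4% with 1 replicate left out. In the 100 bp window the word counts at members' summits were 30 for ACAAT, 4 for ACAAAG and 9 for the E-box, against 11, 2 and 3 within 50 bp, as a wider window holds more by construction. Where the construction does not show it, the cause was not tested. No paired analysis was possible because there is 1 group and no contrast.

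Depth is unknown, so a missing summit is below the authors' threshold and not shown to be absent binding. No untagged line was analysed here.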

Other observations

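The genes RpL5, RpL15 and RpL38 lie in pericentric heterochromatin and were looked at together after their values were seen. RpL5 had an optimal summit of 103.6 at 57 bp, with 62.8 in replicate 1 and 45.5 in replicate 4. RpL15 had one of 117.7 at 17 bp, with 49.4 in replicate 1 and 67.0 in replicate 4. At RpL38 the strongest pooled entry was 75.3, and the nearest optimal summit lay 1181468 bp from its start. Both summits found were weaker than the members' median of 229.8.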
